A study of Mus musculus with 2 samples.

Results

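The genes described here are 9 mouse regulators that carry or bind the LIM domain: the LIM-homeodomain factors Isl1, Isl2, Lhx2, Lhx6 and Lhx9, the LIM-only factors Lmo2 and Lmo4, and the cofactors Ldb1 and Ldb2. They were chosen by symbol, out of 29383 genes in the deposited table, and each had 1 row there. RNA sequencing was run on the apex of embryonic mouse hearts at E12.5, with 8 hearts pooled for each genotype and 1 library made from each pool. The heterozygous control (Nkx2-5cre, Ezh2f/+) had 1 floxed copy of Ezh2 and the mutant (Nkx2-5cre, Ezh2f/f) had 2. Both carry Nkx2-5cre, in which a gene of the heart muscle lineage drives the recombinase, so the control is not wild type and recombination is limited to cells with the driver's history. Ezh2 encodes the enzyme of Polycomb repressive complex 2, which methylates histone H3 on lysine 27. With 1 library per genotype no value has a spread over replicates and the genotype effect was not tested. Intervals are 95% intervals of counting error, which leave out the variation between animals, pools and preparations.

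The LIM domain is a zinc-binding module through which proteins hold on to each other. In LIM-homeodomain factors it stands beside a homeodomain that binds DNA, whereas LIM-only proteins such as Lmo2 and Lmo4 lack a DNA-binding part and act as adaptors. Ldb1 and Ldb2 bind LIM domains, pair with themselves and so join several LIM proteins into 1 complex; LIM-only proteins can compete with LIM-homeodomain factors for them. In the embryo Isl1 marks progenitors of the second heart field, is switched off in most differentiating ventricular muscle and persists in the sinus node.

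Library totals were 13944617 (control) and 14122579 (mutant) reads. Levels are read counts relative to the library total (CPM, per 1000000 reads) after scaling by TMM (trimmed mean of M values), with factors of 0.970 and 1.03. Ezh2 had 493 reads in the control and 319 in the mutant, a mutant-to-heterozygote ratio of 0.601 (0.521 to 0.694), a value for the whole gene and not for the floxed exons alone. The labels call the cells cardiomyocytes and name no sort. Summed over 9 cardiomyocyte markers the level was 50555 CPM in the control and 50237 CPM in the mutant, and all 9 were detected in both. This sum hides opposite differences, since 4 markers were higher and 5 lower in the mutant. Their ratios ran from 0.805 (0.786 to 0.824) for Tnni3 to 1.40 (1.38 to 1.42) for Myh6 and 1.67 (1.64 to 1.70) for Myl7. Markers of other cells were present too: 8 of 8 endothelial and endocardial markers reached 1 CPM (summed level 945 and 906 CPM), as did 6 of 6 epicardial markers (186 and 193 CPM).

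The stretches before the starts of Isl1 and Lhx9 are shown because these are the members whose mutant-to-heterozygote ratio was highest, and because they differ in CG content. They are the 250 bases upstream of the start in RefSeq's table (GRCm38.p6), 5′ to 3′ on the gene's minus strand, with each CG dinucleotide in capitals. The coordinates belong to that build and not to the deposited table.
Isl1, chr13:116309689-116309938, minus strand: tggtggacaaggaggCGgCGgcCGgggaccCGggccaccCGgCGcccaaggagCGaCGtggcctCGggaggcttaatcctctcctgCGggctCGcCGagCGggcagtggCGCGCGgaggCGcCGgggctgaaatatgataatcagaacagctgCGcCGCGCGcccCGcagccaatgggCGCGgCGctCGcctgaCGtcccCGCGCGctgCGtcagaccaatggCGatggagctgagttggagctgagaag
Lhx9, chr1:138842445-138842694, minus strand: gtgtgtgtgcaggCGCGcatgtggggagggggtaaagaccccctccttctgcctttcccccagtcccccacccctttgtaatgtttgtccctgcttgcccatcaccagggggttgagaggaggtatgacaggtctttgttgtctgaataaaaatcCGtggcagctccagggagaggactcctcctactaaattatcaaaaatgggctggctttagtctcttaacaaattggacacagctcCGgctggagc
The Isl1 stretch held 33 CG dinucleotides and 71.2% G or C, and 3.53% of 32851 windows of this length in the table held more. The Lhx9 stretch held 4 CG dinucleotides and 53.6% G or C, and 55.6% of all windows held more. The median over all windows was 6.

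By symbol, 7 of the 9 members matched 14 such windows; Lmo2 and Ldb2 did not match. The windows before Lmo4 held between 25 and 44 CG dinucleotides, those before Lhx2 held 24 and 25, and the window before Isl2 held 16. Windows before Ldb1 ranged from 4 to 40 and those before Lhx6 from 7 to 17. High CG content was found before Isl1 and also before Lmo4, Lhx2 and, in part of its windows, Ldb1. A link between CG content and the ratios was not tested. The TAAT core that homeodomains bind was searched on both strands (as TAAT or ATTA). Isl1 had 2 matches and Lhx9 had 2, while 54.9% of all windows had at least 1. GATA, searched on both strands (as GATA or TATC), had 1 match before each of these genes, and 53.6% of all windows held it. In both genes the GATA match overlapped a TAAT match in 1 place. Letter matches describe the sequence and not binding.

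Isl1 (chromosome 13, 117088489 to 117099893, minus strand, in the deposited table's own coordinates, of a build not given in the sources used here) had 9 reads in the control and 112 in the mutant. That is 0.665 CPM (0.304 to 1.26) against 7.69 CPM (6.33 to 9.26). The 2 counting intervals did not overlap, and the ratio was 11.6 (5.88 to 25.9). On the scale used to count differences, log2((mutant CPM + 1)/(heterozygote CPM + 1)), the value was 2.38, and 4 of the 16185 genes that reached 1 CPM in either library had a higher one. Genes at least 2-fold higher on this scale were 98 of 16185 (0.605%), and Isl1 was the 1 member among them. Isl1 reached the floor of 1 CPM through the mutant library alone, so it could pass the rule upward but not downward. The published study of this mouse already names it, so its direction is not independent evidence.

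A second model, isl1-beta, lies inside Isl1 on the same strand (117097099 to 117099893) and had 3 reads in the control and 51 in the mutant, a ratio of 15.8 (5.11 to 79.1). It covers the end of the locus where transcription starts and can count the same reads. If all its reads were also counted for Isl1, they were 33.3% of Isl1 reads in the control (Clopper-Pearson 7.49 to 70.1) and 45.5% in the mutant (36.1 to 55.2), intervals that overlap. With these reads taken away Isl1 kept 6 reads against 61, a ratio of 9.45 (4.10 to 26.7). On that count both the shared and the remaining reads were more numerous in the mutant.

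**Figure D1:**
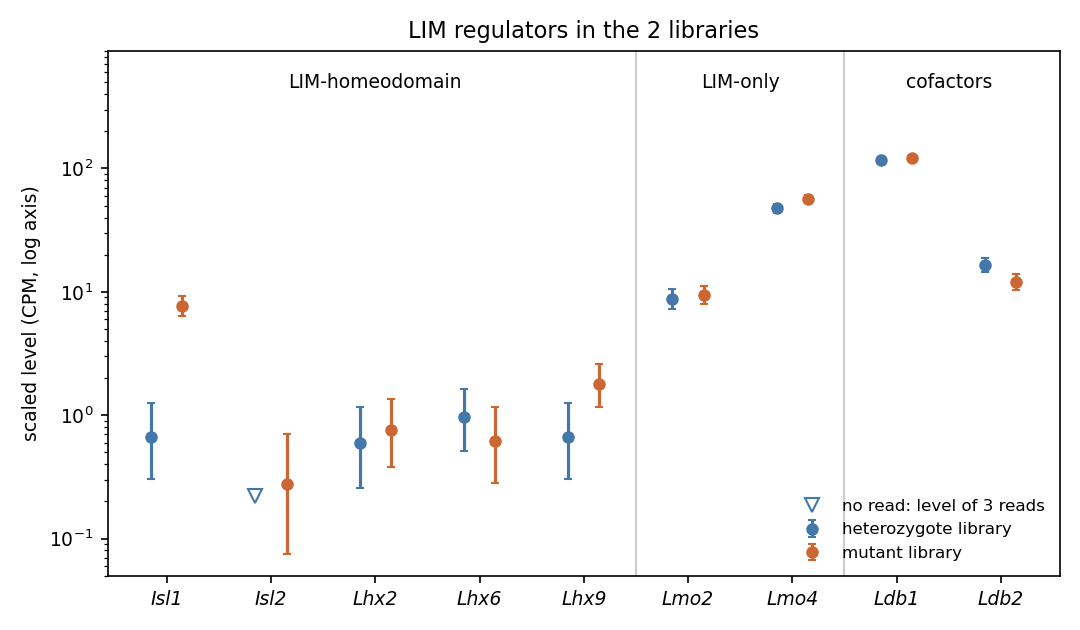
Scaled level of each LIM regulator (CPM, log axis) in the library of the heterozygous control (blue) and the mutant library (orange), with 95% exact Poisson intervals as bars; the open triangle marks the level of 3 reads for Isl2, which had no read in the control. Isl1 went from 0.665 to 7.69 CPM, while Ldb1 had 117.9 and 121.2 CPM.

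The other LIM-homeodomain members stayed at low levels in both libraries. Lhx9, a gene of the developing limb, gonad and brain (chromosome 1, 140721763 to 140744156), had 9 reads in the control and 26 in the mutant, or 0.665 CPM against 1.79 CPM. The mutant was higher, with a ratio of 2.68 (1.22 to 6.51), and the level intervals overlapped (0.304 to 1.26 and 1.17 to 2.62 CPM). Its log2 value of 0.74 missed the 2-fold rule, and 1.59% of genes at the floor had a higher one. With 0.1 CPM added in place of 1 CPM it was 1.30 and passed. Lhx9 reached the floor through the mutant alone, so it could pass the rule upward but not downward.

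Lhx2, a regulator of forebrain and eye (chromosome 2, 38194801 to 38225248), had 8 reads against 11, and its ratio of 1.28 (0.468 to 3.66) could not be told from 1 at this depth. Lhx6, a gene of forebrain interneurons and the jaw (chromosome 2, 35937473 to 35960928), had 13 reads against 9, a ratio of 0.643 (0.243 to 1.63) that could not be told from 1 either. Isl2, a relative of Isl1 known from motor neurons (chromosome 9, 55388956 to 55393985), had 0 reads in the control, where a floor of 3 reads is 0.222 CPM, and 4 in the mutant (0.275 CPM). The exact interval of its control level reached 0.273 CPM and the counting interval of its ratio started at 0.613, so a difference was not detectable at this depth. These 3 genes were under 1 CPM in both libraries.

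Summed over the 5 LIM-homeodomain members there were 39 reads in the control and 162 in the mutant, a ratio of 3.86 (2.71 to 5.63). Without Isl1 the other 4 summed to 30 against 50 reads, with a ratio of 1.55 (0.966 to 2.52) whose interval includes 1. Isl1 made up 23.1% (11.1 to 39.3) of the reads of these 5 genes in the control and 69.1% (61.4 to 76.1) in the mutant.

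In the control the LIM-only members were expressed well above the LIM-homeodomain members. In the mutant the level intervals of Lmo2 (7.90 to 11.1 CPM) and Isl1 (6.33 to 9.26 CPM) overlapped, while the other LIM-homeodomain members stayed far lower. Lmo4, an adaptor found in many embryonic tissues (chromosome 3, 143851494 to 143867936), had 641 reads in the control and 825 in the mutant, or 47.4 CPM (43.8 to 51.2) against 56.7 CPM (52.9 to 60.7). The level intervals did not overlap and the ratio was 1.20 (1.08 to 1.33). Its log2 value was 0.25, and 17.4% of genes at the floor had a higher one.

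Lmo2, an adaptor of blood and vessel cells (chromosome 2, 103810286 to 103822030), had 118 reads against 137, or 8.72 CPM against 9.41 CPM. Its ratio of 1.08 (0.837 to 1.39) could not be told from 1. Markers of cells known to use Lmo2 had a median log2 value of -0.10 for 8 endothelial and endocardial genes and of -0.21 for 6 erythroid genes. Their part in the Lmo2 level was not tested. In pooled tissue fewer cells of a type and less RNA per cell cannot be told apart. Lmo2 was 15.5% (13.0 to 18.3) of the reads of both LIM-only members in the control and 14.2% (12.1 to 16.6) in the mutant, so the balance of the pair differed by less than its counting error.

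Among the cofactors, Ldb1, the broadly expressed partner of LIM proteins (chromosome 19, 46107091 to 46114111), was the member with most reads, 1595 in the control and 1765 in the mutant. Its levels were 117.9 CPM (112.2 to 123.8) and 121.2 CPM (115.6 to 127.0), and the ratio was 1.03 (0.960 to 1.10). The intervals overlapped and the ratio could not be told from 1. After a trend with transcript GC content and length was removed, its log2 value went from 0.04 to -0.11, so it has no settled direction. The value of Lhx2 changed sign in the same way, from 0.14 to -0.01.

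Ldb2 (chromosome 5, 44863372 to 45190946) went the other way, with 223 reads in the control and 176 in the mutant. It had 16.5 CPM (14.4 to 18.8) against 12.1 CPM (10.4 to 14.0), intervals that do not overlap, and a ratio of 0.733 (0.598 to 0.898). Its log2 value was -0.42, and 5.59% of genes at the floor had a lower one. Genes at least 2-fold lower were 28 of 16185 (0.173%), and 0 of the 9 members were among them. Ldb2 was 12.3% (10.8 to 13.9) of the reads of both cofactors in the control and 9.07% (7.83 to 10.4) in the mutant, and these intervals do not overlap. Ldb2 is known from vascular endothelium. Of 8 endothelial and endocardial markers 6 had a log2 value below 0, 2 had one above 0, and 0 were past the 2-fold rule. Their median log2 value was -0.10, and that of all genes at the floor was -0.008. Of the 2 most abundant Cdh5 had a ratio of 0.929 (0.885 to 0.976) and Npr3 0.966 (0.910 to 1.03). The ratios of the 8 ran from 0.819 (0.750 to 0.894) for Emcn to 1.29 (1.14 to 1.46) for Nfatc1. Their part in the Ldb2 value was not tested. A model named by an mRNA accession overlaps Ldb2 on the same strand, with 4 and 3 reads.

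**Figure D2:**
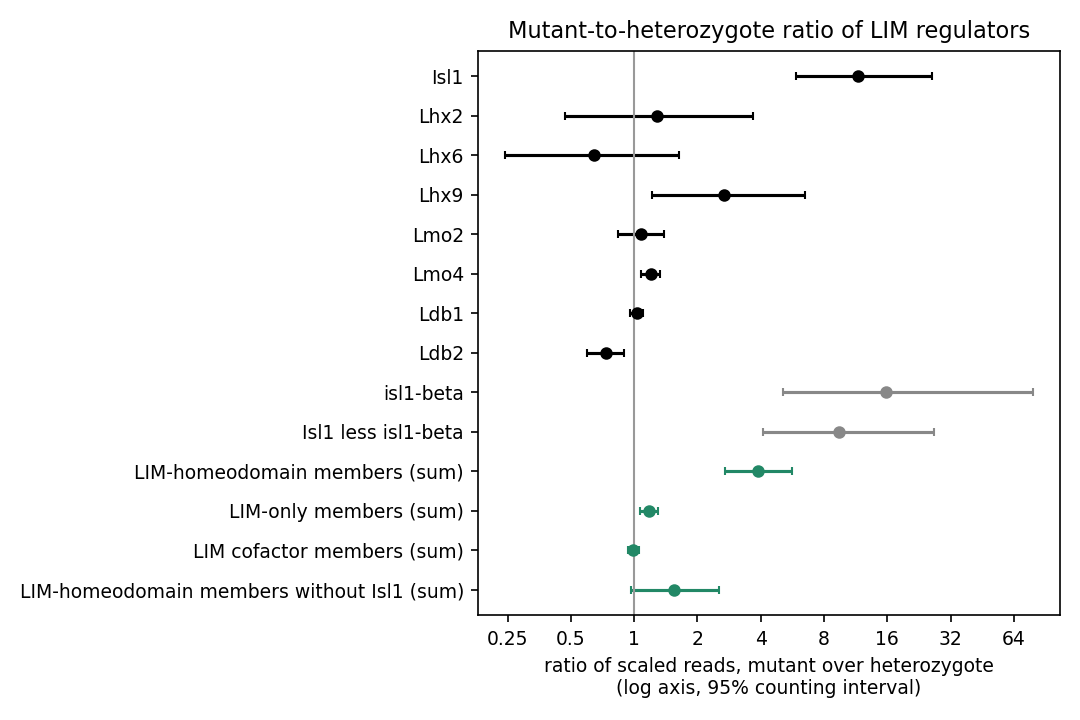
Ratio of scaled reads in the mutant over the heterozygote (log axis) with 95% exact conditional intervals, for the 8 members with reads in both libraries (black), the isl1-beta model and Isl1 without its reads (grey), and sums by class (green). The interval of Isl1 lies far to the right of 1, those of Lhx9 and Lmo4 lie above 1, and that of Ldb2 lies below 1.

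Of the 6 members at the floor, the counting interval of the ratio lay above 1 for Isl1, Lhx9 and Lmo4 and below 1 for Ldb2. Among all 16185 genes at the floor it lay above 1 for 17.4% and below 1 for 19.1%, so an interval that leaves out 1 is common between these libraries. Isl1 and Lhx9 reached the floor through the mutant alone, so they were admitted by the library in which they were high. The authors' deposited table gives a ratio of heterozygote CPM to mutant CPM of 0.0814 for Isl1, 0.351 for Lhx9, 0.787 for Lmo4 and 1.28 for Ldb2. These ratios use CPM without TMM scaling.

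**Figure D3:**
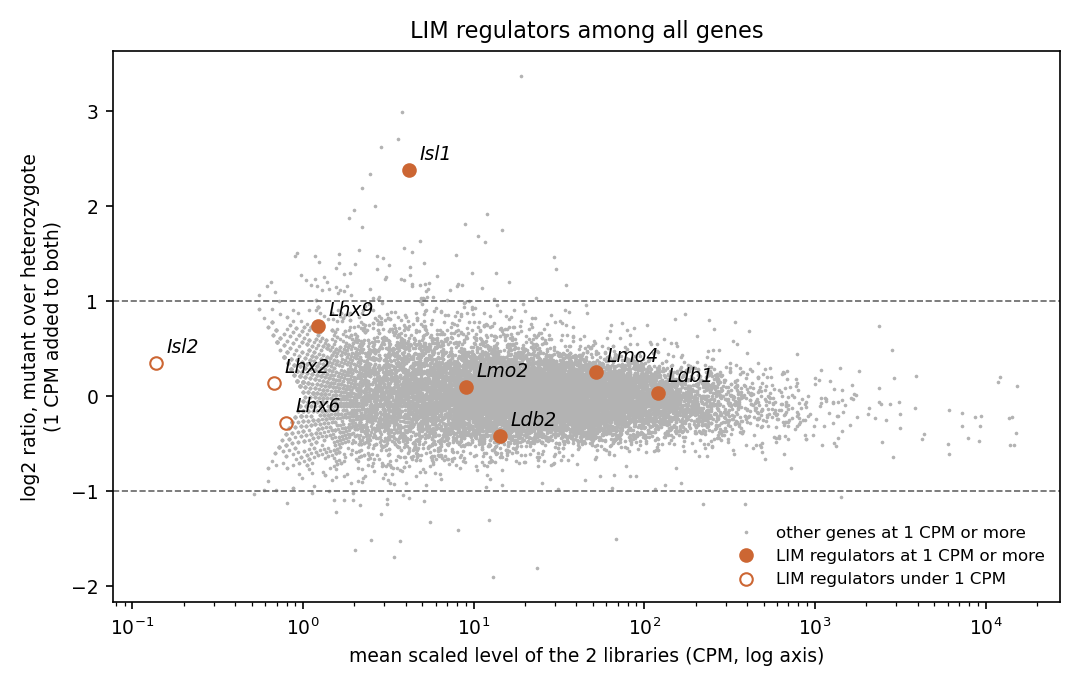
Log2 ratio of mutant over heterozygote (1 CPM added to both) against the mean level (CPM, log axis) of each gene; grey points are the genes at 1 CPM or more in either library, filled orange points the 6 LIM regulators at that floor and open points the 3 below it, and dashed lines mark a 2-fold difference. Isl1 stands above the dashed line at 2.38, while Lmo2, Lmo4, Ldb1 and Ldb2 lie inside the cloud between -0.42 and 0.25.

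Levels were compared between genes per kilobase of the longest GENCODE M21 transcript of each gene. In the control the order was Ldb1 (37.6 CPM per kb), Lmo4 (28.4), Ldb2 (6.35) and Lmo2 (5.11), followed by Lhx6 (0.276), Isl1 (0.264), Lhx2 (0.208), Lhx9 (0.135) and Isl2 (listed at 0). Intervals of neighbours overlapped between Ldb2 and Lmo2 and at each step from Lhx6 down to Isl2, so that Isl1 had no place of its own within its class. In the mutant Isl1 had 3.06 CPM per kb (2.52 to 3.68). It was then above Lhx9, the next in its class, at 0.362 (0.236 to 0.530), and below Ldb2 at 4.66 (3.99 to 5.40), and neither interval overlapped its own. Ldb1 (38.7) and Lmo4 (33.95) still led, and Lmo2 (5.52) and Ldb2 again had overlapping intervals. Lhx2 (0.266), Lhx6 (0.178) and Isl2 (0.148) closed the order with overlapping intervals.

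The wider gene family was described from lists, beside a median log2 value of -0.008 over all genes at the floor. Of 12 LIM-homeodomain genes, 3 reached 1 CPM, 1 (Isl1) was at least 2-fold higher and 0 were lower by as much, and the median was 0.74. Isl1 and Lhx9 reached the floor through the mutant alone and Lmx1a through the control alone, so this median says little of the class. Over all 12 genes it was 0.04, and Lhx3, Lhx5 and Lmx1b had no read in either library. The third at the floor, Lmx1a, known from the midbrain and singled out after its values were seen, had 19 reads in the control and 8 in the mutant, a ratio of 0.391 (0.148 to 0.936).

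All 4 LIM-only genes were in the table and 3 reached 1 CPM, with a median of 0.25 and 0 at least 2-fold apart. Of these 3, Lmo3 reached the floor through the mutant alone, which could only raise the median. Over all 4 genes it was 0.18. Lmo3, singled out after its values were seen, had 5 reads against 16, a ratio of 2.97 (1.04 to 10.4), and Lmo1 had 2 in each library.

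A further list holds 6 genes that code for the cofactors or for proteins that stabilise or degrade them, and 0 of these 6 were 2-fold apart. Their median was -0.07, or 0.02 when libraries were scaled by total reads. Ssbp3, whose protein binds Ldb proteins and protects them from breakdown, had a ratio of 1.05 (0.981 to 1.13). Its relatives, singled out after their values were seen, differed in opposite directions: Ssbp4 had 211 reads against 336 (1.48, 1.24 to 1.77) and Ssbp2 had 590 against 511 (0.805, 0.713 to 0.908). Rlim, which codes for a ubiquitin ligase of Ldb proteins and is named Rnf12 in the table, had 890 against 846 reads (0.883, 0.803 to 0.972).

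Partners of Lmo2 in blood and vessel cells had a median of 0.17 over 7 of 9 at the floor, with 0 at least 2-fold apart, and of 0.06 over all 9. Tcf4 and Tcf3, listed as E proteins that pair with Tal1, had ratios of 0.926 (0.878 to 0.976) and 1.15 (1.07 to 1.24). Both were matched by symbol alone. The deposited symbols include older names, and which gene Tcf3 stands for among them was not checked. Tal1 itself, singled out as the direct partner, had 330 reads against 337, a ratio of 0.949 (0.813 to 1.11). Gata1 and Klf1, erythroid regulators, were under 1 CPM in both libraries.

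Partners and target genes of Isl1 in heart progenitors had a median of 0.19 over 12 of 16 at the floor, where 9 were above 0, 3 below 0, with 1 at least 2-fold higher and 0 lower by as much. Fgf10, a growth factor of the second heart field, was the 1 past the 2-fold rule, with 26 reads in the control and 85 in the mutant (3.04, 1.94 to 4.91). Others were singled out after their values were seen. Bmp4 had 139 reads against 233 (1.56, 1.26 to 1.94). Mef2c, a muscle regulator with an Isl1-dependent enhancer, had 1204 against 1168 (0.901, 0.831 to 0.978). Fgf8 had 1 read against 7 (6.50, 0.836 to 293), and Shh and Tbx1 had none in either library. Tbx5 (1.32, 1.20 to 1.46) and Bmp7 (1.27, 1.17 to 1.37) were also higher in the mutant. Smyd1 (0.909, 0.862 to 0.960) and Ctnnb1 (0.943, 0.910 to 0.978) were lower, as was Mef2c. Over all genes at the floor the counting interval lay above 1 for 17.4% and below 1 for 19.1%. The part of Isl1 in these values was not tested.

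**Figure D4:**
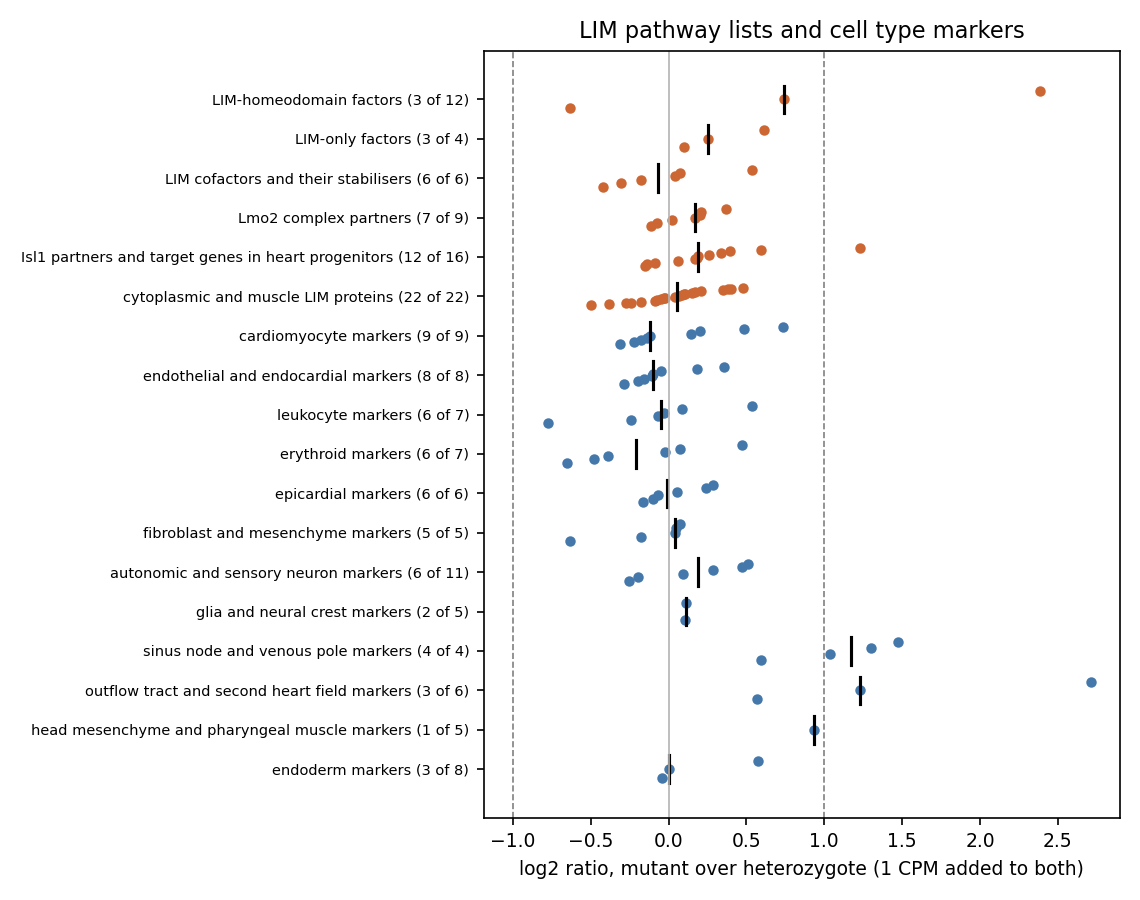
Log2 ratio of mutant over heterozygote (1 CPM added to both) for each gene at or above 1 CPM in lists of LIM-related genes (orange) and cell type markers (blue); black bars are medians, dashed lines a 2-fold difference, and brackets give the genes at the floor of those listed. Medians of most lists lie near 0, and those of sinus node and of outflow tract markers lie above 1. The outflow tract median rests on 3 genes at the floor, and over all 6 listed it was 0.52. Of those at the floor only Fgf10 reached it in the control. The others passed through the mutant alone, so their values could only be above 0.

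Isl1 is known from several cell types, whose markers were read in the same libraries. Over all genes at the floor 0.605% were at least 2-fold higher and 0.173% lower. Sinus node and venous pole markers summed to 34.2 CPM in the control and 83.3 CPM in the mutant, and 3 of 4 were at least 2-fold higher. These were Hcn4 with 205 reads in the control and 638 in the mutant (2.89, 2.47 to 3.40), Tbx3 with 100 and 287 (2.67, 2.12 to 3.38), and Shox2 with 18 and 55 (2.84, 1.64 to 5.14). Outflow tract and second heart field markers summed to 2.59 and 14.4 CPM, with 2 of 6, Fgf10 among them, at least 2-fold higher, and with Tbx1 and Hoxb1 at 0 in both. Autonomic and sensory neuron markers summed to 49.4 and 67.5 CPM, of which Hand1, a gene that heart muscle also expresses, made up 39.2 and 56.3 CPM. Of these 11 markers 6 reached 1 CPM and 0 were past the 2-fold rule. Beside Hand1 the 5 that reached it were Phox2a with 40 reads in the control and 47 in the mutant, Elavl4 with 47 and 40, Elavl3 with 15 and 28, Stmn2 with 19 and 16, and Tubb3 with 9 and 15. Under 1 CPM, Th had 3 and 11 reads, Dbh 4 and 3, and Prph 1 and 3. Glia and neural crest markers summed to 9.91 and 11.2 CPM, with Foxd3 at 0 in both and Sox10 at 0 and 3 reads. Endoderm markers summed to 16.9 and 18.96 CPM, with Nkx2-1 (named Titf1 in the table) at 0 in both and Foxa2 at 0 and 4 reads. The 3 of them at the floor were Krt18 with 148 and 154 reads, Krt8 with 38 and 68 (1.66, 1.10 to 2.54), and Sox17 with 38 and 41. Head mesenchyme and pharyngeal muscle markers summed to 6.87 and 12.7 CPM, with 1 of 5 reaching 1 CPM, 0 of 5 past the 2-fold rule, Msc at 13 and 8 reads and Myf5 at 0 in both. The part of these cell types in the Isl1 value was not tested.

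Among the 5 genes whose levels lay nearest to those of Isl1 in both libraries were Sema5b, Pax6, Opn4 and Cdkn2a, by distance in log2(CPM + 1) over the 2 libraries. Sema5b, an axon guidance gene, was closest at a distance of 0.01, with 9 reads in the control and 111 in the mutant. Opn4, which codes for the photopigment melanopsin, was at 0.62, with 20 against 92 reads (4.27, 2.61 to 7.32), and Pax6 and Cdkn2a were at 0.62 and 0.63. With 2 libraries such likeness is a description of a pair of levels.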

How the data were processed

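RNA of 8 pooled heart apices per genotype gave 1 library each. The authors deposited whole-number read counts per gene model and CPM, reads scaled to a library total of 1000000, per the file headers. The authors' ratio (heterozygote CPM over mutant CPM) and p-value come with no named test, per the file headers, and that deposited p-value was not used. Aligner, counter, strand use and build: not given in the sources used here. The tables of single samples differed from the series table in 0 rows. Without strand, antisense reads cannot be told apart.

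Rows of 1 symbol were summed. TMM factors came from edgeR 4.0.16 in R 4.3.3 and intervals from scipy 1.17.1 (exact Poisson for levels, exact conditional for ratios). Without molecular identifiers reads are not separate molecules, so intervals and floors cover counting error only. A gene was counted as apart at 1 CPM or more in a library and 2-fold or more with 1 CPM added. Of 150 list entries 144 matched by symbol and 5 by synonym. The GC trend was fitted on 10861 genes. The calculation was tested on simulated data. Members and lists were chosen with earlier results of these data known. Named genes are all members, Ezh2, the list members past the 2-fold rule or else the 2 highest, defining markers of marker lists, and the 5 nearest to Isl1. Overlapping and neighbouring genes were taken by position. Other genes named, such as the ends of a list's range, were chosen after their values were seen. A few genes that these rules name are not reported here, while counts and sums include them. Alternatives used total reads, DESeq2 1.42.0 size factors, the upper quartile, other pseudocounts, floors and folds.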

Additional observations from a re-analysis of the deposited data

How the results depend on the processing

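The log2 value of Isl1 stayed above 1 under all 8 alternatives run for it. It was 3.35 with 0.1 CPM added, 1.16 with 5 CPM added and 1.85 without the reads of isl1-beta. Over all members 55 of 64 alternative values lay inside the main counting interval and 9 outside. The number of members at least 2-fold higher was 1, and was 2 with 0.1 CPM added and 2 at 1.5-fold. The number of genes at least 2-fold higher, 98, was 312 with 0.1 CPM added, 14 with 5 CPM added, 559 at 1.5-fold and 50 with a floor of 5 CPM. The number at least 2-fold lower, 28, was 143, 6, 305 and 14 under the same settings. With no floor the median of LIM-homeodomain genes was 0.036 and that of Lmo2 partners 0.062. No paired analysis was possible because each genotype has 1 library, and no library could be left out. At this depth 3 reads are 0.222 CPM in the control and 0.206 CPM in the mutant, which limits what can be seen of Isl2, Lhx2 and Lhx6.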

Other observations

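LIM proteins listed as cytoplasmic or muscle proteins, which share the domain, were all expressed: 22 of 22 listed genes reached 1 CPM. Their median log2 value was 0.05, with 12 above 0, 10 below 0 and 0 at least 2-fold apart. Crip2, a cysteine-rich LIM protein of heart and vessels, had a ratio of 1.07 (1.04 to 1.10), and Ldb3, a Z-disc protein that shares its name but not its function with Ldb1, had 1.06 (1.03 to 1.09). Chosen after their values were seen as the 2 farthest apart were Pdlim5, with 2026 reads in the control and 1537 in the mutant (0.705, 0.659 to 0.754), and Limk2, a kinase of actin turnover, with 585 against 881 (1.40, 1.26 to 1.56).

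Genes beside the members in the table's coordinates, chosen by position, did not share the value of Isl1. The nearest named models were Itga1, 1196 kb away, with a ratio of 0.808 (0.742 to 0.881), and Parp8, 544 kb away, with 0.909 (0.767 to 1.08). Beside Lhx9, Nek7 had 770 against 775 reads (0.935, 0.845 to 1.03). Of the 18 neighbours of all members, 17 reached 1 CPM and 0 were at least 2-fold apart. Over all genes at the floor 0.605% were at least 2-fold higher and 0.173% lower, so a count of 0 among so few genes says little.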
